A study of Mus musculus with 10 samples.

Results

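Metallothioneins are small cysteine-rich proteins that bind zinc, copper and cadmium in the cytosol, and Slc30a1 (ZnT1) is the plasma membrane transporter that exports zinc from the cell. The zinc finger transcription factor Mtf1 senses free zinc. It switches on the metallothionein genes Mt1 and Mt2 and Slc30a1 through metal response elements (MREs) in their promoters, so that these transcripts are widely read as reporters of zinc and cadmium load. Glucocorticoids and oxidative stress are also known to raise metallothioneins, and wasting skeletal muscle is known for raised Mt1 and Mt2 transcripts. These 4 genes, Mt1, Mt2, Slc30a1 and Mtf1, were taken by name as metal-response genes. All 4 were present among the 11228 genes of the expression table, and all 4 passed the filter of a mean of 1 FPKM that left 10993 genes for testing.

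The groups are mouse myotubes, differentiated in vitro for 2 days, in which the muscle-specific lncRNA Charme was depleted with one of the gapmer sets GAP-2 (n = 2 libraries) or GAP-2/3 (n = 2), and control myotubes given GAP-scr (n = 2). Gapmers are antisense oligonucleotides that recruit RNase H, and every library came from cells that received some gapmer, with no untreated cells among them. Polyadenylated RNA was sequenced. The labels give neither the origin of the myoblasts nor the overlap in oligonucleotides between the GAP-2 and GAP-2/3 sets. In a second assay, ChIRP-seq, Charme was captured with even and odd probe sets and the chromatin DNA it carried was sequenced. Levels are in FPKM, fragments per kilobase of transcript scaled to the mapped fragments of the library. Log2 changes are on the scale of log2(FPKM + 1), where the added 1 shrinks the change of low genes, and a change is called at a Benjamini-Hochberg adjusted p under 0.05 over all genes tested with limma.

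The level of Charme is not analysed here, so the groups rest on the labels. FPKM values hide sequencing depth, which is unknown here. All 6 myotube markers were present. Their summed levels were 5949 and 6033 FPKM in GAP-2, 6308 and 6819 FPKM under GAP-2/3 and 10017 and 10896 FPKM in GAP-scr. Acta1 made up much of each sum, at 5636 and 6323 FPKM in GAP-scr. Of the 6 markers, 5 were called lower with GAP-2 and 3 with GAP-2/3, where 4.18% and 11.3% of all genes were called lower. Des, Myh3 and Myog were not called with GAP-2/3. In bulk RNA, fewer myotubes and less muscle RNA per myotube cannot be told apart, and the part of this fall in the results below was not tested. Of the markers of other cells, the endothelial list had 0 of 3 genes in the table, the macrophage list 1 of 4 (Cd68, at 2.43 and 3.54 FPKM in GAP-2, 0.962 and 0.834 FPKM under GAP-2/3 and 0.374 and 0.917 FPKM in GAP-scr), the adipocyte list 1 of 4 (Pparg, at 0.998 to 2.01 FPKM), the fibroblast list 3 of 4 and the myoblast list 2 of 3. Summed fibroblast markers were 864 and 706 FPKM in GAP-2, 512 and 588 FPKM under GAP-2/3 and 832 and 846 FPKM in GAP-scr, a sum made up mostly of the collagen gene Col1a1, which was called lower with GAP-2/3 (log2 change -0.92). The other fibroblast markers went the opposite way. Dcn, decorin, stood at 72.7 and 71.3 FPKM in GAP-2, 123 and 128 FPKM under GAP-2/3 and 52.6 and 37.2 FPKM in GAP-scr, and Pdgfra, a growth factor receptor, at 2.28 and 2.34 FPKM in GAP-2, 3.62 and 4.32 FPKM under GAP-2/3 and 1.69 and 1.51 FPKM in GAP-scr. Both were called higher in GAP-2/3 than in GAP-scr and than in GAP-2, the same order of groups as in Mt1, Mt2 and Slc30a1. Of the myoblast markers, the myogenic factor gene Myf5 was called higher (0.84 with GAP-2 and 1.13 with GAP-2/3) and Myod1 lower (-0.54 with GAP-2 and -0.60 with GAP-2/3). The part of these markers in the results for the metal-response genes was not tested. The ribosomal RNA precursor Rn45s stood at 4090 FPKM in GAP-2 replicate A and 3387 FPKM in GAP-scr replicate A, against 93.2 to 175.5 FPKM in the other 4 libraries. Replicates are described as biological, but separate cultures are not named, and p-values therefore reflect only library-to-library spread, which may be technical.

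The promoters are shown because Mt1, Mt2 and Slc30a1, but not Mtf1, are classical MRE genes. Each line gives the 250 bases before the start used in the RefSeq promoter table (GRCm38.p6, plus strand for all 4 genes; for Mt1 and Slc30a1 this start lies inside the annotated gene), with matches to the MRE core in capitals. The core was searched as TGCACNC or TGCGCNC, where N is any base, on both strands, so that a match on the opposite strand reads GNGTGCA or GNGCGCA here. The windows are chr8:94178839-94179088 for Mt1, chr8:94172368-94172617 for Mt2, chr1:191906531-191906780 for Slc30a1 and chr4:124802299-124802548 for Mtf1.
Mt1: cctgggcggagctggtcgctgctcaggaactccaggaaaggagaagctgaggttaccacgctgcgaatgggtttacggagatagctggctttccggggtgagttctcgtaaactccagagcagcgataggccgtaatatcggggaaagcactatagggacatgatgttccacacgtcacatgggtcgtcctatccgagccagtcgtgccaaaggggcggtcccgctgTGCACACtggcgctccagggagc
Mt2: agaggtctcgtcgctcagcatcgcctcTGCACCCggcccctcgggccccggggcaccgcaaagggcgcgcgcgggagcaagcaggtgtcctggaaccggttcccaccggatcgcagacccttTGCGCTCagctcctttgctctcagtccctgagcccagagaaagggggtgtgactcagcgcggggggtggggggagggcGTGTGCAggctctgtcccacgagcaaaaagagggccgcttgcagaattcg
Slc30a1: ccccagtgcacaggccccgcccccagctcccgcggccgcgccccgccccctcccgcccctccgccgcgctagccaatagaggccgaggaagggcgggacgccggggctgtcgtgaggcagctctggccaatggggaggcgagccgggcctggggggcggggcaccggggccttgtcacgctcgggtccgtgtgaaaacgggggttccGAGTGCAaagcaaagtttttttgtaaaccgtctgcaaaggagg
Mtf1: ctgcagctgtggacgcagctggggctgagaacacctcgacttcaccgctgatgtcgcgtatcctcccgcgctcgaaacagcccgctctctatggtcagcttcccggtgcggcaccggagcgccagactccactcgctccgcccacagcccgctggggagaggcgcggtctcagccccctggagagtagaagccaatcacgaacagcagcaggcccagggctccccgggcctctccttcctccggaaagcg

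Mt2 had 3 matches in this window, Mt1 had 1, Slc30a1 had 1 and Mtf1 had 0. Among the 32851 promoter windows of the same length in the RefSeq table (27025 genes), 21.4% held at least 1 match and 1.26% held at least 3. Further matches lay just behind the start used in the promoter table, at bases 3 to 9 and 21 to 27 of Mt1, 5 to 11 of Mt2 and 31 to 37 of Slc30a1. Over all 300 bases of the table's windows, Mt1 therefore had 3 matches, Mt2 had 4, Slc30a1 had 2 and Mtf1 had 0. In these longer windows 1.97% of all promoters held at least 3 matches and 7.11% at least 2. The 30 bases from the start used for each metallothionein (chr8:94179089-94179118 for Mt1 and chr8:94172618-94172647 for Mt2) are printed for these matches, again in capitals.
Mt1 start: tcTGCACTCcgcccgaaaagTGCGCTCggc
Mt2 start: ggtcGTGCGCAggcccaggggcgtgtgctg

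**Figure D1:**
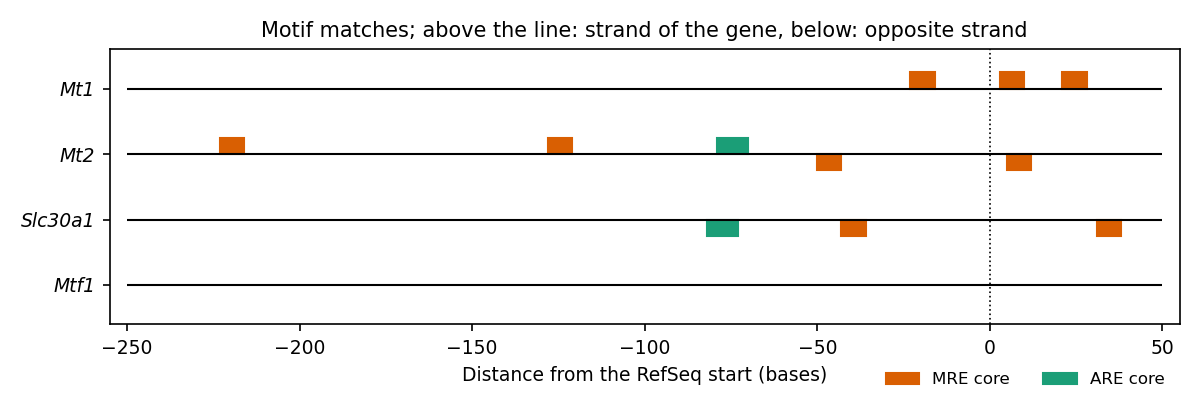
Motif matches from 250 bases before to 50 bases after the RefSeq start, by gene, with distance from the start in bases on the x axis. Blocks above a line are on the strand of the gene and blocks below it on the opposite strand. Mt1 has 3 MRE cores close to the start used, Mt2 has 4 spread over the window, Slc30a1 has 2 and Mtf1 has none.

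The core of the antioxidant response element, through which NRF2 acts, was searched as TGACNNNGC on both strands. It matched once before the start of Mt2, from base -79 to base -71, and once before that of Slc30a1, from base -82 to base -74, and it matched in 10.2% of all windows of 250 bases. The E-box CACGTG had 0 matches in the 4 promoters and at least 1 in 6.02% of all. A match says only that these letters are in the window. Whether transcription in the myotubes begins at the starts used was not examined, so the motif counts describe these windows alone.

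Both metallothioneins were higher after Charme knock-down, Mt1 with either gapmer set and Mt2, by the test, with GAP-2/3. Mt1 stood at 29.5 and 28.0 FPKM in GAP-2, at 52.2 and 60.1 FPKM under GAP-2/3 and at 9.02 and 17.4 FPKM in GAP-scr. The 3 groups did not overlap, and the GAP-scr libraries differed from each other more, in proportion, than those of either gapmer group. Mt1 averaged 28.8 ± 1.04 FPKM in GAP-2, 56.2 ± 5.58 FPKM under GAP-2/3 and 13.2 ± 5.95 FPKM in GAP-scr (SD, n = 2 each). Relative to GAP-scr it rose by a log2 change of 1.13 ± 0.21 (SE) with GAP-2 (limma adjusted p = 0.0061) and by 2.07 ± 0.21 with GAP-2/3 (limma adjusted p = 5.03e-05).

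Mt2, its neighbour on chromosome 8, passed the test with GAP-2/3. It was measured at 6.09 and 6.15 FPKM in GAP-2, 21.5 and 23.0 FPKM under GAP-2/3 and 3.54 and 5.17 FPKM in GAP-scr. Both gapmer groups lay above the controls, GAP-2 by a narrow margin. With GAP-2/3 it rose by 2.13 ± 0.15 (limma adjusted p = 2.34e-06), a ratio of mean FPKM of 5.09. With GAP-2 the change of 0.43 ± 0.15 did not pass (limma adjusted p = 0.0693; 95% interval 0.11 to 0.75), with means of 6.12 ± 0.0415 FPKM in GAP-2 and 4.36 ± 1.15 FPKM in GAP-scr (SD, n = 2 each).

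Slc30a1, the exporter, was weakly expressed and moved the same way. Its level was 1.46 and 1.80 FPKM in GAP-2, 3.43 and 3.57 FPKM under GAP-2/3 and 0.579 and 1.08 FPKM in GAP-scr. No library of one group reached into another. It rose by 1.31 ± 0.15 with GAP-2/3 (limma adjusted p = 0.000105). The ratio of mean FPKM, 4.23, rests on a low GAP-scr mean of 0.828 ± 0.353 FPKM (SD, n = 2). With GAP-2, Slc30a1 rose by 0.53 ± 0.15 (limma adjusted p = 0.0345). That call did not hold with the libraries scaled to one median (adjusted p = 0.0611), with only the GAP-2 and GAP-scr libraries in the fit (adjusted p = 0.0855) or without any single library other than GAP-scr replicate B, where the change ran from 0.34 (without GAP-scr replicate A) to 0.63 (without GAP-2 replicate A).

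Mtf1, the sensor that activates the other genes, was called lower with GAP-2/3 and not called with GAP-2. Its level was 5.64 and 4.99 FPKM in GAP-2, 4.29 and 4.94 FPKM under GAP-2/3 and 6.51 and 6.07 FPKM in GAP-scr. Every gapmer library was below both control libraries, and both GAP-2/3 libraries were just below both GAP-2 libraries. With GAP-2/3 it fell by 0.38 on the log2 scale (SE 0.125, limma adjusted p = 0.0319), a call lost when any single library other than GAP-scr replicate B was left out, at log2 changes of -0.46 (without GAP-2/3 replicate B) to -0.30 (without GAP-2/3 replicate A). With GAP-2 the change was -0.21 ± 0.125 (limma adjusted p = 0.269).

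**Figure D2:**
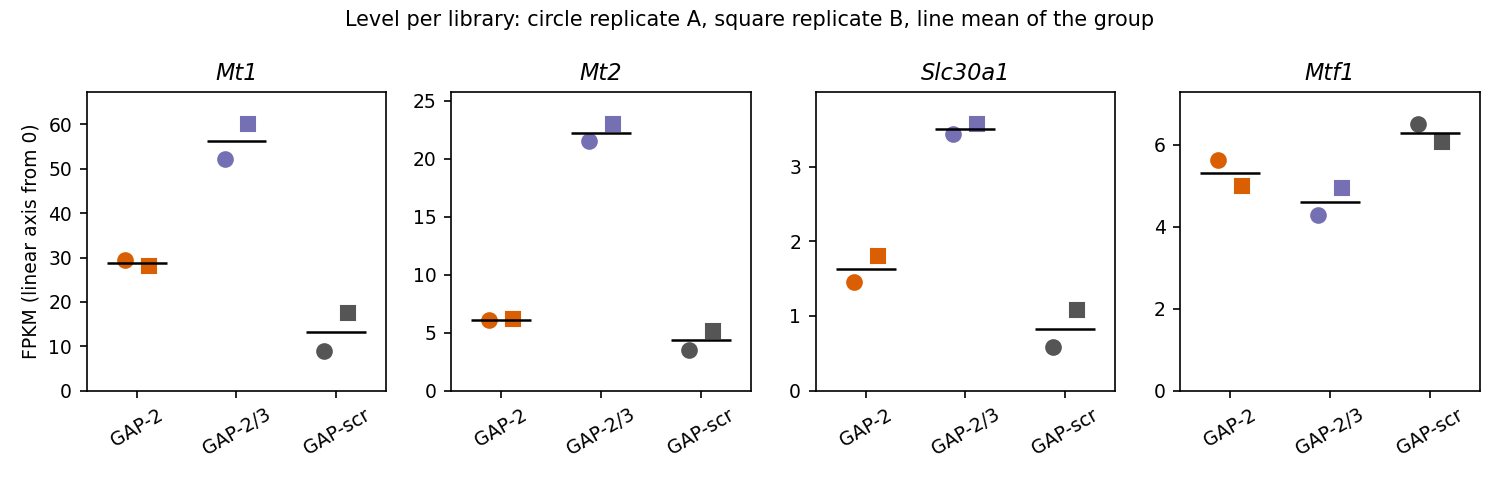
FPKM of the 4 genes in each library on linear axes from 0, with GAP-2, GAP-2/3 and GAP-scr from left to right; circles are replicate A, squares replicate B and lines the group means. Mt1, Mt2 and Slc30a1 are highest in both GAP-2/3 libraries and lowest in both GAP-scr libraries, and Mtf1 is highest in both GAP-scr libraries.

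Read against the whole table, the gain of these genes was near the top of all genes with GAP-2/3. There 3 of the 4 were called higher and 1 lower, where 28.0% of all tested genes were called higher, 11.3% lower and 39.3% either way. Mt2 had the 29th and Mt1 the 34th highest log2 change of 10993, and Slc30a1 the 109th. With GAP-2, 2 of the 4 were called higher, against 10.4% of all genes, and none lower by limma, against 4.18% (none either at an unadjusted p under 0.05); 14.6% of all genes were called in either direction. Mt1 ranked 80 from the top there, Slc30a1 608 and Mt2 1068. Both comparisons share the 2 GAP-scr libraries.

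For the mean of both gapmer arms against GAP-scr, Mt1 changed by 1.60 ± 0.19, Mt2 by 1.28 ± 0.13 and Slc30a1 by 0.92 ± 0.13, and all 3 were called higher with limma, against 24.5% of all genes called higher, 9.57% lower and 34.1% either way. Mtf1 changed by -0.29 ± 0.11 and narrowly missed the threshold (adjusted p = 0.0538), which it passed with the libraries scaled to one median (-0.38, adjusted p = 0.0207). The share of all genes called higher rests partly on scaling, since this comparison called 2698 genes higher and 1052 lower, but 1628 against 1554 after scaling to one median and 1568 against 1695 after quantile normalization. GAP-2 called 1144 higher and 460 lower, which those scalings turned into 700 against 646 and 692 against 687. GAP-2/3 called 3081 higher and 1242 lower, which they turned into 1945 against 1781 and 1820 against 1960. The median log2 change of all genes, 0.10 for the mean of both arms and 0.13 for GAP-2/3, fell to 0.02 and 0.03 with one median. The signs of the 4 genes did not turn under either scaling.

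The direct comparison of GAP-2/3 with GAP-2 tests how far the arms differ, and it uses no control library as its reference. Mt2 was higher in GAP-2/3 by 1.71 ± 0.15 (limma adjusted p = 3.87e-05), the 18th highest change of all genes, with a ratio of mean FPKM of 3.63. Mt1 was higher by 0.94 ± 0.21 (adjusted p = 0.0188, limma) and Slc30a1 by 0.78 ± 0.15 (adjusted p = 0.00774, limma), with ratios of 1.95 and 2.15. These 3 of 4 calls stand beside 6.50% of all genes called higher, 3.65% lower and 10.1% either way. The underlying 714 higher and 401 lower genes turned into 490 against 424 after scaling to one median and 493 against 503 after quantile normalization. Mtf1 did not pass, at -0.17 ± 0.125 (adjusted p = 0.421, limma; 95% interval -0.44 to 0.10). The call of Mt1 was lost without either GAP-2/3 library, at changes of 1.04 (without replicate A, adjusted p = 0.156) and 0.84 (without replicate B, adjusted p = 0.199). That of Slc30a1 was lost without either GAP-2/3 library or GAP-2 replicate A, at 0.69 to 0.80. Mt2 kept its call without any single library.

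**Figure D3:**
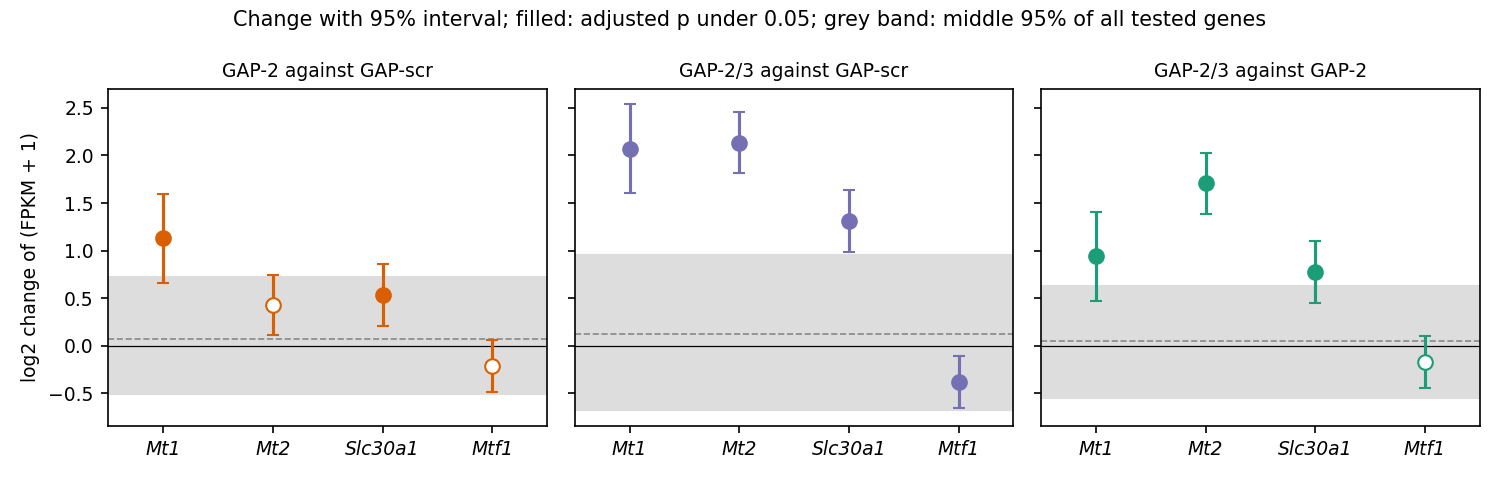
Log2 change of (FPKM + 1) with 95% intervals for the 4 genes in 3 comparisons; filled points have an adjusted p under 0.05, and the grey band holds the middle 95% of all tested genes, with their median as a dashed line. Mt1, Mt2 and Slc30a1 lie above the band in both comparisons of GAP-2/3, whereas of the 4 genes Mt1 alone lies above it for GAP-2.

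The balance between the metallothioneins was also compared. The ratio of Mt1 to Mt2 FPKM was 4.84 and 4.55 in GAP-2, 2.43 and 2.62 under GAP-2/3 and 2.55 and 3.37 in GAP-scr. Both GAP-2 libraries had a higher ratio than every other library, and the GAP-2/3 and GAP-scr ratios overlapped. On the log2 scale the difference was 0.68 between GAP-2 and GAP-scr and -0.90 between GAP-2/3 and GAP-2, each with p = 0.333 in a two-sided exact permutation test, the smallest p that 2 libraries against 2 allow. For GAP-2/3 against GAP-scr it was -0.22 (p = 0.667, exact permutation test). FPKM scales each gene to its own length, and for transcripts as short as these the value depends on the fragment lengths assumed, so the ratio is better compared between libraries than read as a ratio of molecules. Mt1 and Mt2 are also similar in sequence, and the treatment of reads matching both is not stated in the labels. Their summed level was 35.6 and 34.2 FPKM in GAP-2, 73.8 and 83.1 FPKM under GAP-2/3 and 12.6 and 22.6 FPKM in GAP-scr.

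**Figure D4:**
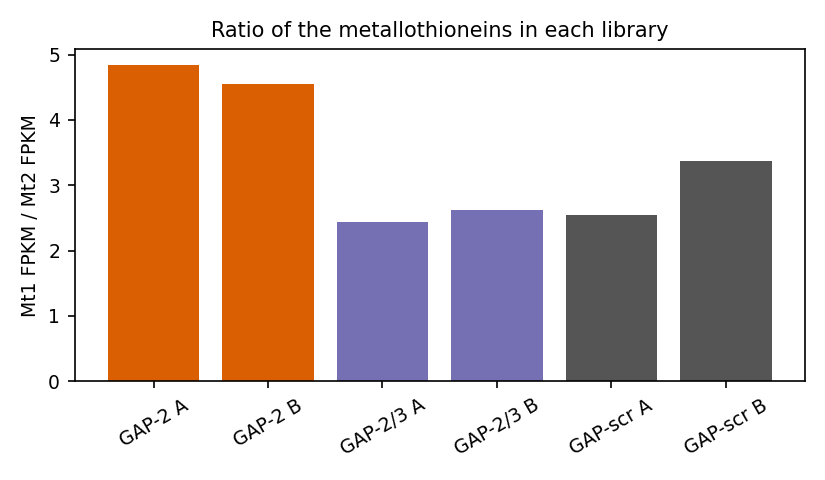
Mt1 FPKM divided by Mt2 FPKM in each library, as bars from 0, with GAP-2, GAP-2/3 and GAP-scr from left to right. The GAP-2 bars, at 4.84 and 4.55, are the tallest, and the other 4 lie between 2.43 and 3.37.

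Both libraries high in Rn45s, GAP-2 replicate A and GAP-scr replicate A, carry the letter A, and GAP-scr replicate A also had the lowest level of Mt1, Mt2 and Slc30a1. In a fit without both, which was chosen after the values were seen, the change of Mt1 was 0.65 with GAP-2 and 1.63 with GAP-2/3, and both were called. Mt2 changed by 0.21 with GAP-2, not called, and by 1.91 with GAP-2/3, called. Slc30a1 changed by 0.43 with GAP-2, where the call was lost (adjusted p = 0.124), and by 1.11 with GAP-2/3, called. Leaving out GAP-scr replicate A alone lowered the GAP-2 change of Mt1 to 0.69, of Mt2 to 0.21 and of Slc30a1 to 0.34, while leaving out GAP-scr replicate B raised them to 1.57, 0.65 and 0.73. Without GAP-scr replicate B the change of Mt2 with GAP-2 was called (adjusted p = 0.00682), and over all single libraries left out its adjusted p ran up to 0.28.

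Zinc leaves the cytosol through the Slc30a family and enters it through the Slc39a (ZIP) family. Of 10 Slc30a genes 6 were tested. For the mean of both arms 4 of them rose with limma (2 to 4 under the other scalings and without both libraries high in Rn45s) and none fell, also at an unadjusted p under 0.05, with a median log2 change of 0.37 against 0.10 for all genes. Of all genes 24.5% were called higher and 9.57% lower in this comparison, and Slc30a1 itself is 1 of the 4. The others were Slc30a5, a transporter of the early secretory pathway (0.46 ± 0.10), Slc30a7 of the Golgi (0.42 ± 0.11) and the vesicular Slc30a4 (0.32 ± 0.10). With GAP-2 alone 2 of the 6 were called higher (0 under either scaling), where 10.4% of all genes were. With GAP-2/3 alone 3 were called higher (2 under either scaling), where 28.0% of all genes were. Slc30a4 was called in neither arm alone (limma adjusted p = 0.0695 with GAP-2 and 0.0798 with GAP-2/3). Slc30a5 stood at 19.1 and 21.0 FPKM in GAP-2, 21.3 and 20.3 FPKM under GAP-2/3 and 15.7 and 13.5 FPKM in GAP-scr, so that the arms overlapped and both lay above the controls. In GAP-2/3 against GAP-2, Slc30a1 was the 1 Slc30a gene of 6 called, where 6.50% of all genes were called higher and 3.65% lower.

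The importers were followed in the same way, but with 9 genes tested their count of calls is not read as a result about importers. Of 14 Slc39a genes 9 were tested, with a median log2 change of 0.08 over both arms, and 1 rose and none fell with limma (2 and 0 at an unadjusted p under 0.05; 1 higher and 1 lower with one median, where Slc39a7 was the lower gene), against the same shares of all genes. The riser was Slc39a10, a plasma membrane importer that Mtf1 is known to repress in zinc-treated cells. It stood at 32.0 and 34.9 FPKM in GAP-2, 28.2 and 24.9 FPKM under GAP-2/3 and 21.6 and 22.9 FPKM in GAP-scr. Its change was 0.56 ± 0.11 with GAP-2 (limma adjusted p = 0.00814) and 0.24 ± 0.11 with GAP-2/3 (limma adjusted p = 0.112), and between the arms it was -0.32 ± 0.11 (limma adjusted p = 0.0952). Slc39a13, an importer of the secretory pathway, passed with GAP-2/3 alone, at 0.32 ± 0.11 (limma adjusted p = 0.0434), and not under either scaling. Its difference between the arms did not pass (adjusted p = 0.301, limma). Slc39a6, a plasma membrane importer, changed by 0.19 ± 0.10 and Slc39a7, which releases zinc from the endoplasmic reticulum, by -0.16 ± 0.09 over both arms, neither called.

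**Figure D5:**
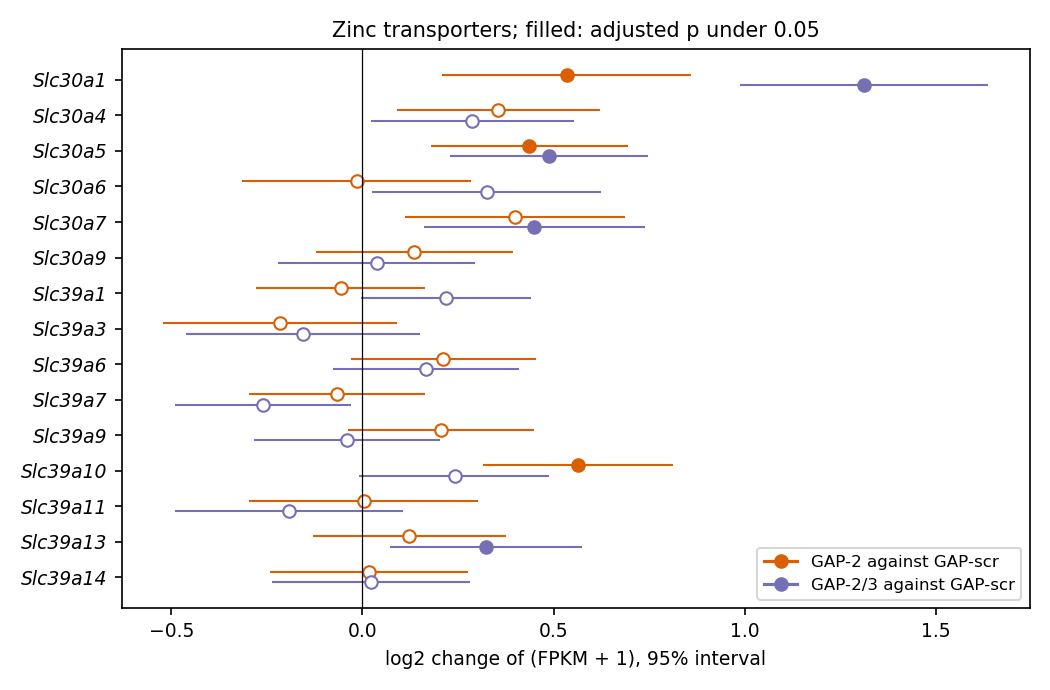
Log2 change of (FPKM + 1) with 95% intervals for the 6 Slc30a and 9 Slc39a genes tested, for each gapmer treatment against GAP-scr; filled points have an adjusted p under 0.05. Slc30a1 with GAP-2/3, at 1.31, lies apart from the other points.

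Other genes reported as Mtf1 targets were followed as a further list. The metallothioneins Mt3 and Mt4 had no row in the table used here, and 6 of the 8 listed genes were tested. With GAP-2, 4 of them rose and none fell (3 and 0 under either scaling; 4 and 0 at an unadjusted p under 0.05), where 10.4% of all genes were called higher. With GAP-2/3, 1 rose and 1 fell, where 28.0% of all genes were called higher and 11.3% lower. One of the 4 is Slc39a10, which is also counted among the importers and was described there as repressed by Mtf1. The list therefore mixes directions of regulation by Mtf1, and the part of Mtf1 in these changes was not tested. Gclc, the catalytic subunit of the enzyme that starts glutathione synthesis, rose by 0.77 ± 0.11 with GAP-2 and by 0.90 ± 0.11 with GAP-2/3. It is counted again among the NRF2 targets below, so the lists are not separate observations. Pgf, placental growth factor, changed by 0.42 ± 0.11 with GAP-2, called, and by 0.19 ± 0.11 with GAP-2/3, not called. Ndrg1, a stress- and hypoxia-induced gene, stood at 76.2 and 106 FPKM in GAP-2, 25.4 and 24.6 FPKM under GAP-2/3 and 44.8 and 68.4 FPKM in GAP-scr. It was lower in GAP-2/3 than in GAP-2 by 1.80 on the log2 scale (SE 0.19, limma adjusted p = 0.000142), against the direction of the metallothioneins.

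Metallothionein genes also respond to NRF2, a transcription factor activated by electrophiles. Of 8 NRF2 targets 6 rose and none fell with GAP-2 (6 and 0 also at an unadjusted p under 0.05; 5 and 0 under either scaling), and 4 rose and 1 fell with GAP-2/3 (2 and 1 under either scaling and without both libraries high in Rn45s). Of all genes 10.4% were called higher with GAP-2 and 28.0% with GAP-2/3 (11.3% lower), all without scaling. Under either scaling fewer of all genes were called higher with GAP-2/3 too, so 2 of 8 is not read as a result about NRF2 targets. In GAP-2/3 against GAP-2, 4 were lower and none higher by limma (none either at an unadjusted p under 0.05), against 3.65% of all genes lower, with a median log2 change of -0.42 against 0.05 for all genes. These were Hmox1, heme oxygenase (-0.73 ± 0.11), Srxn1, sulfiredoxin (-0.78 ± 0.11), Txnrd1, thioredoxin reductase (-0.62 ± 0.12), and the cystine transporter Slc7a11 (-0.87 ± 0.18), whereas Mt1, Mt2 and Slc30a1 were higher. Nqo1 had 35.6 and 38.0 FPKM in GAP-2, 32.1 and 31.1 FPKM under GAP-2/3 and 5.62 and 6.62 FPKM in GAP-scr, with log2 changes of 2.41 ± 0.12 for GAP-2 and 2.20 ± 0.12 for GAP-2/3, and the difference between the arms did not pass (-0.21 ± 0.12, limma adjusted p = 0.274).

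The genes whose pattern over the 6 libraries was most like each member were taken as those with the smallest root mean square difference between centred log2(FPKM + 1) profiles, among genes whose mean reached 5 FPKM. For Mt2 the closest of 8507 genes was Tppp3, a tubulin polymerization-promoting protein, at a difference of 0.085, where the profile of Mt2 itself had an SD of 0.93. Tppp3 stood at 67.2 and 75.8 FPKM in GAP-2, 212 and 259 FPKM under GAP-2/3 and 48.7 and 60.6 FPKM in GAP-scr. Next came Mgp, the matrix Gla protein that restrains calcification (0.145), Anxa1, annexin A1 (0.152), the splicing regulator Ptbp2 (0.236) and the pseudokinase gene Trib2 (0.237). All 5 shared with Mt2 levels in GAP-2/3 well above those of the other 4 libraries.

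For Mt1 the closest were the transcription factor gene Foxc1 (0.23), Nt5e, the ectonucleotidase CD73 (0.236), Gja1, connexin 43 (0.247), the nucleic acid sensor Zbp1 (0.256) and Fam102b (0.272). Foxc1 had 7.09 and 6.76 FPKM in GAP-2, 12.2 and 11.4 FPKM under GAP-2/3 and 2.19 and 2.75 FPKM in GAP-scr, a graded pattern like that of Mt1. Mt2 came 20th from Mt1 by this measure, and Mt1 came 18th from Mt2. Slc30a1 was closest to Eps8, an actin regulator (0.056), followed by Fos (0.102), Inhba (0.112), Cav1 (0.114) and Cmbl (0.116). At 0.579 to 3.57 FPKM, its changes are shrunk by the added 1 more than those of genes whose mean reached 5 FPKM. Its likeness in size to these genes therefore holds on this scale only. Mtf1 varied little, with an SD of 0.17, and was closest to Edem2 (0.015), Gga1 (0.016), Gga3 (0.021), Med25 (0.027) and Tns1 (0.028). The libraries share their groups and scaling, so likeness over 6 points describes the pattern and carries no test.

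In the ChIRP-seq peak list, none of the 798 merged Charme peaks overlapped any of the 4 genes. The share of all genes that a peak overlaps was not counted, so the lack of overlap is not read as a result about these genes. The submitters' processing notes name mm9, but a peak, ending at 170732078, is past the X chromosome's length in that build, so positions are read as GRCm38, an inference. Mt2 spans 94172618 to 94173567 and Mt1 94178883 to 94180327 on chromosome 8, with 5315 bases between them, and the nearest peak was 511 kb from Mt1. Slc30a1, at 191906697 to 191913248 on chromosome 1, had its nearest peak 167 kb away. Mtf1, at 124802549 to 124849800 on chromosome 4, had 1 at 43.3 kb, and 5.20% of the 10265 tested genes that could be placed had a peak as near or nearer. For all placed genes the median distance was 914 kb, 33.8% had a peak as near as Mt1 has and 13.9% had a peak as near as Slc30a1 has.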

How the data were processed

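The authors deposited FPKM values for 11228 genes in 6 libraries; the kit was a stranded mRNA kit per the labels' protocols. The submitters' processing notes name TopHat2, Cufflinks, Cuffdiff, MACS and bedtools, among other tools, and the build mm9, without roles or versions. The peak file was deposited with a score per peak, which was not used. Counts cannot be recovered from these FPKM values, so no count model was run.

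One limma 3.58.1 model (R 4.3.3) on log2(FPKM + 1), with an intensity trend and no covariates, covered all 3 groups and the 10993 genes whose mean reached 1 FPKM (235 lay below). The step was tested on simulated data. Promoters (RefSeq, GRCm38.p6; 4 of 4 members matched) were searched in Python 3.11.15, and exact permutation tests used scipy 1.17.1. The members, the gene lists and the rule for named genes (the members, the 5 most alike genes of each, and up to 4 genes per list with the smallest p over both arms) were chosen with earlier results of these data known, so their counts are descriptions. Other genes named in a comparison were chosen after their values were seen. Alternatives are given in the closing section.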

Additional observations from a re-analysis of the deposited data

How the results depend on the processing

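The 4 genes gave 16 log2 changes over 4 comparisons and 248 alternative values, of which 220 kept their direction and their side of the threshold, 21 lost a call, 7 gained one and none turned sign. For Slc30a1 with GAP-2 the change of 0.53 lost its call under quantile normalization (0.39), with one median (0.50), with only the groups compared (0.53) and without both libraries high in Rn45s (0.43), and ran from 0.34 to 0.73 with a library left out. For Mtf1 the fall with GAP-2/3 lost its call with only the groups compared (-0.38) and without both libraries high in Rn45s (-0.34), and ran from -0.46 to -0.30 with a library left out. Over both arms Mtf1 gained a call under quantile normalization (-0.41), with one median (-0.38), without the intensity trend (-0.29) and at a threshold of 0.1 (-0.29). Mt2 with GAP-2 gained one at a threshold of 0.1 (0.43) and ran from 0.21 to 0.65 with a library left out. For GAP-2/3 against GAP-2 leaving out a library gave 0.84 to 1.04 for Mt1 and 0.69 to 0.87 for Slc30a1. The causes of these shifts were not tested.

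With the replicate letter as a block, Mt2 with GAP-2 was called at the same change of 0.43 (adjusted p = 0.0361), and no other call of the 4 genes changed. The labels do not say that a letter marks a shared day or batch. Same-letter deviations correlated at 0.36 between GAP-2 and GAP-scr, -0.18 between GAP-2 and GAP-2/3 and -0.13 between GAP-2/3 and GAP-scr.

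Leaving out a library gave 2063 to 3967 called genes for the mean of both arms, 497 to 2636 for GAP-2, 1520 to 4508 for GAP-2/3 and 184 to 2094 for GAP-2/3 against GAP-2. Shifts of over 1.5 times came without GAP-2/3 replicate A (2063) or GAP-2 replicate B (2218) for the mean of both arms, and without GAP-2/3 replicate A (1520) for GAP-2/3. For GAP-2 they came without GAP-2 replicate A (577) or B (497), either GAP-2/3 library (938) or GAP-scr replicate A (2636). For GAP-2/3 against GAP-2 the library left out decided the count in every case: 184 (GAP-2/3 A), 231 (GAP-2/3 B), 350 (GAP-2 A), 536 (GAP-2 B), 2050 (GAP-scr A) and 2094 (GAP-scr B). With only the groups compared the counts were 916 for GAP-2 and 2086 for GAP-2/3 against GAP-2, and at a threshold of 0.1 they were 2567 and 1781. At a minimum mean of 5 FPKM Slc30a1 is not tested. Over the whole 300 bases the MRE matches were 3 for Mt1 and 2 for Slc30a1. By Pearson correlation the 5 most alike genes shared 0 with those named for Mt1, 1 for Mt2, 1 for Slc30a1 and 2 for Mtf1. A count-based fit was not run, since FPKM does not hold the depth, and the precision that depth gives each gene is unknown.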

Other observations

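Other metals were followed through lists of copper and iron handling. Of 13 iron genes 6 rose over both arms with limma and none fell, also at an unadjusted p under 0.05 (2 and 0 with one median, 3 and 0 under quantile normalization, and 6 and 1 without both libraries high in Rn45s, where Fth1 was the lower gene). Of all 10993 genes 24.5% were called higher and 9.57% lower in this comparison, with 1628 called higher with one median and 1568 under quantile normalization. Ftl1, the ferritin light chain that stores iron, had 1747 and 1771 FPKM in GAP-2, 985 and 1113 FPKM in GAP-2/3 and 757 and 738 FPKM in GAP-scr. Slc40a1, the iron exporter ferroportin, had 42.9 and 41.1 FPKM in GAP-2, 23.1 and 24.0 FPKM in GAP-2/3 and 27.1 and 23.2 FPKM in GAP-scr. Against GAP-2, both were lower in GAP-2/3, Ftl1 by a log2 change of -0.75 ± 0.11 (limma adjusted p = 0.00158) and Slc40a1 by -0.81 ± 0.11 (limma adjusted p = 0.00115), as was Hmox1. Ncoa4, which carries ferritin to the lysosome, rose by 0.47 ± 0.10 over both arms.

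Of 11 copper genes tested 4 rose and 1 fell over both arms (0 and 1 with one median, 2 and 1 under quantile normalization or without both libraries high in Rn45s), and between the arms 0 were called with limma, also at an unadjusted p under 0.05. The counts over both arms are near the 24.5% higher and 9.57% lower of all genes. Between the arms 10.1% of all genes were called either way, so 0 of 11 is not read as a result about copper genes. The copper chaperone Atox1 changed by 0.33 ± 0.09, Commd1 by 0.34 ± 0.10, the importer Slc31a1 by 0.32 ± 0.10 and Cox17, which supplies copper to cytochrome oxidase, by -0.31 ± 0.09. Of 7 tested glucocorticoid-induced genes 0 were called over both arms with limma (1 at an unadjusted p under 0.05; 1 lower, Klf9, under quantile normalization; 1 higher, Tsc22d3, without both libraries high in Rn45s). Over both arms 34.1% of all genes were called either way, so 0 of 7 is not read as a result about glucocorticoid-induced genes. The smallest p among the 7 was that of Sgk1, a kinase, at 0.22 ± 0.09 (limma adjusted p = 0.0687). With GAP-2/3 Sgk1 was the 1 gene of the 7 called higher, at 0.37 ± 0.10 (limma adjusted p = 0.0145), where 28.0% of all genes were called higher, and it was not called under either scaling.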
